A study of Mus musculus with 32 samples.

Results

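The 7 genes described here are the GATA factors Gata2, Gata3, Gata4, Gata5 and Gata6 and the 2 Friend of GATA (FOG) cofactors, Zfpm1 (FOG1) and Zfpm2 (FOG2). They were taken by symbol from the 54233 rows of the deposited RNA-seq table, and each symbol matched 1 row. An added row for the GATA6 transgene was kept apart from endogenous Gata6. The test covered 15227 genes that reached 10 normalized counts in 4 or more samples, among them 6 of the 7 members and not Gata5. All samples were mouse ES (mES) cells, labelled as an embryonic stem cell line of strain C57BL/6 with the transgene TRE:GATA6-DSREd2, in which 1 copy of a bidirectional TET-responsive element drives FLAG-tagged GATA6 together with the red fluorescent protein DsRed2. RNA was taken at 0, 2, 4, 8, 16, 24, 48 and 96 h, with 4 replicates each and 32 samples in all. Cells at 0 h had no doxycycline (Dox) and were kept in 2i medium with LIF, whereas cells at 2, 4 and 8 h were in serum medium with LIF and 1 µg/ml Dox. Cells at 16 h and later had received Dox for 12 h and then serum medium without it. The effects of Dox and of the change of medium therefore cannot be told apart in any comparison with 0 h.

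GATA factors are zinc finger transcription factors that bind the core sequence GATA. Gata4, Gata5 and Gata6 are known from endoderm and heart, and Gata6 is required for the primitive endoderm, the extraembryonic lineage that separates from the epiblast in the blastocyst. Gata2 and Gata3 are known from blood and from trophoblast. FOG proteins do not act by binding DNA themselves but by binding the amino-terminal zinc finger of GATA factors, and they recruit corepressors such as the NuRD complex and CtBP.

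The members lie on different chromosomes except Gata3 and Gata5 (GENCODE M21, GRCm38). Gata2 is at chr6:88193891-88207032, Gata3 at chr2:9857078-9890034, Gata4 at chr14:63198922-63271692 and Gata5 at chr2:180325133-180334699. Zfpm1 is at chr8:122282141-122337251 and Zfpm2 at chr15:40655035-41104592. The start regions of the members are shown first, since the transgene encodes a factor that binds GATA sites. RefSeq windows of 250 bases before a start and 50 bases from the start on (GRCm38.p6) were found for 4 of the 7 members, Gata2, Gata3, Gata5 and Zfpm1. Each was searched on both strands for AGATAA or AGATAG or TGATAA or TGATAG. The window of Gata3 held 1 match, TGATAG on the gene's strand, which is in capitals below. It begins at position 37, with the start site counted as position 1. The windows of Gata2 (2 starts), Gata5 and Zfpm1 held 0. Of all 32851 windows of this length, 29.8% held at least 1 match. A match describes the letters only. The Gata3 window, chr2:9878551-9878850 on the minus strand, is shown beside that of Zfpm1, chr8:122281891-122282190 on the plus strand. Both were picked because these genes rose early after Dox. Whether a match bears on the rise of a gene was not tested.
Gata3: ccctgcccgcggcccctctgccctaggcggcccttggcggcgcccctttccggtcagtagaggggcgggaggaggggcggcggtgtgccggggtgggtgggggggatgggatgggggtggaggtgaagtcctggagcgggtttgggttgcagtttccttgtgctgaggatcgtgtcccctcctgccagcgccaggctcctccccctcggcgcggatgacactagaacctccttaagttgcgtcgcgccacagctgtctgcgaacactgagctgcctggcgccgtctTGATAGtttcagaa
Zfpm1: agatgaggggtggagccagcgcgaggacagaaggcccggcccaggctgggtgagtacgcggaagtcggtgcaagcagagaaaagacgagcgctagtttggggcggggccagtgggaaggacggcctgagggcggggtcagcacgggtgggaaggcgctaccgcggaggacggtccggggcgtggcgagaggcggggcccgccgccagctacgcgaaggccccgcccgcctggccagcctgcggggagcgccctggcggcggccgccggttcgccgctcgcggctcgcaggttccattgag
For Gata4, the member with the highest level per kb at 96 h, 1 of the 2 probes that the study designed to capture a fragment at its start is shown. It is listed at chr14:63245296-63245415 (exact to within 1 base), upstream of an annotated Gata4 transcript start at position 63245271 of GRCm38 on the minus strand, and it held 0 matches. The bases are printed as listed with the probe.
Gata4 probe: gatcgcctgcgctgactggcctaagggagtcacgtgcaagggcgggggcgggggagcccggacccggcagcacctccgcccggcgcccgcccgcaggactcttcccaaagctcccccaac

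Values are normalized counts, that is, reads divided by the size factor of each sample, recovered from the deposited values. A gene was called changed at FDR < 0.1 and at least a 4-fold difference (limma on log2(normalized count + 1), adjusted over all 15227 genes). Fold changes are on that scale, which understates the change of low genes. A sample had between 3190108 and 12301732 reads on genes. The study states that replicate experiments were carried out independently, but the labels do not say which samples came from separate cultures, so p-values measure the spread between these samples. The replicates formed 2 sets, since reads of replicates 1 and 2, or of 3 and 4, differed by a median chi-square per degree of freedom of 1.54 and reads across the sets by 10.5. Cells at 0 h expressed the ES cell markers (Nanog 5875, Pou5f1 9104 normalized counts). At 96 h 7 of 8 such markers were called lower, against 10.3% of all genes. In bulk RNA, fewer cells of a type and less RNA per cell cannot be told apart.

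Endogenous Gata6, the gene for the induced factor itself, was with Gata3 the first member called higher, at 2 h. It had no reads in replicates 1 and 4 at 0 h and 1 read in each of replicates 2 and 3. At 2 h it was at 11.4, 14.3, 16.4 and 17.2 normalized counts in the 4 replicates. At 4 h it was at 149, 191, 172 and 172, and every sample lay above every 2 h sample. Summed over the samples, Gata6 was 29.6-fold higher at 2 h than at 0 h (95% interval 7.87 to 249, counting error only), and 334-fold higher at 4 h (92.1 to 2763). On the fitted scale the rise at 2 h was 3.57 ± 0.15 (log2, SE; adjusted p = 1.1e-17), which ranked 75 among the rises of the 15227 genes, and the rise at 4 h of 7.02 ± 0.15 ranked 4. With a pseudocount of 5 the rise at 2 h was 1.88 and under 4-fold (adjusted p = 6.64e-15). The step from 2 to 4 h, 3.45 ± 0.15, was called as well (adjusted p = 2.42e-16). Between 2 and 4 h 0.788% of all genes were called.

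From 4 h on, Gata6 rose in smaller steps. The mean was 346 ± 22.6 at 8 h (SD, n = 4), 902 ± 85.7 at 16 h and 913 ± 71.9 at 24 h, and then 1210 ± 194 at 48 h and 2067 ± 154 at 96 h. The steps from 4 to 8 h (log2 difference 1.01), 8 to 16 h (1.38), 24 to 48 h (0.40) and 48 to 96 h (0.78) passed the FDR but were under 4-fold. At 16 h, Gata6 was at 43.6% of its 96 h mean, and at 24 h at 44.1%. At 96 h it was 4102-fold above 0 h (1135 to 33874).

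The transgene row rose with Dox and fell after its withdrawal, whereas endogenous Gata6 did not fall. It had 0 reads in all samples at 0 h, and 540, 510, 682 and 740 normalized counts in the 4 replicates at 2 h. This was at least 813-fold higher than the limit that 0 reads allow (3 reads over the 4 samples), and it was the largest rise of all genes at 2 h. It stayed at 510 ± 104 at 4 h and 504 ± 118 at 8 h. At 16 h, 4 h after Dox withdrawal, it was at 68.7, 72.5, 76.5 and 44.9, all below every 8 h sample (log2 difference -2.92 ± 0.31, adjusted p = 4.7e-08). It did not return to 0, and was at 50.8 ± 29.9 at 24 h, 81.6 ± 15.2 at 48 h and 115 ± 49.8 at 96 h. At 2 h the endogenous row held 2.42% ± 0.29 of the reads of the transgene row, at 4 h 34.5% ± 6.83 and at 8 h 71.0% ± 14.4. From 16 to 96 h the transgene row held on average between 5.52% and 7.39% of the endogenous reads. The study, by contrast, reports endogenous Gata6 mRNA on a par with the transgene from 2 h after Dox. Its methods describe a transgene estimate from coding and untranslated reads of the last exon, scaled to length and library size. Whether that estimate was used for the rows here is not stated. How reads were divided between both rows, which share coding sequence, is not stated in the sources used here either, so these are shares of reads and not of transcripts.

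**Figure D1:**
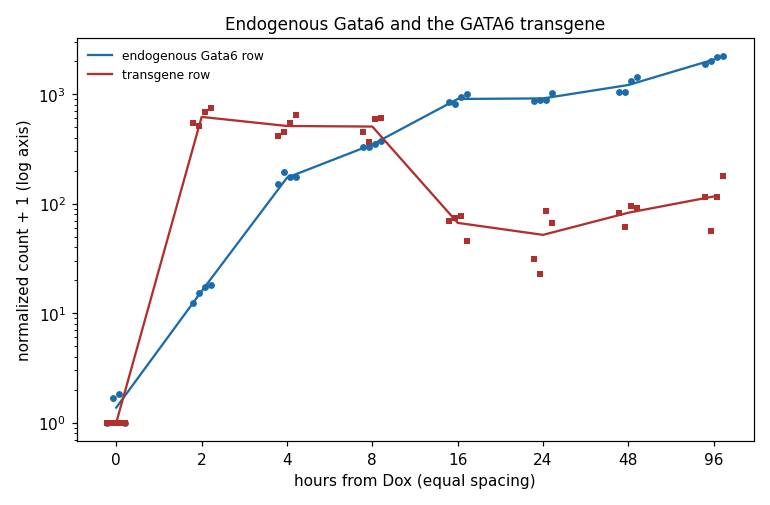
Normalized counts + 1 (log axis) of the endogenous Gata6 row (blue) and the transgene row (red) at each time point, with 1 point per sample and lines through the means. The transgene row is at 510 or above in all 2 h samples while endogenous Gata6 is at 17.2 or below, and from 16 h on the endogenous row lies above the transgene row in every sample.

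Gata4, which acts with Gata6 in the extraembryonic endoderm, rose later and reached a higher level per kb of exon (given below). It was at 19.3, 22.4, 39.5 and 22.7 normalized counts at 0 h and at 16.6, 12.1, 37.5 and 55.0 at 2 h, and both groups overlapped. At 4 h it was at 26.7, 36.3, 60.9 and 71.1 (log2 difference from 0 h 0.83 ± 0.30, adjusted p = 0.027, under 4-fold). At 8 h all samples lay between 274 and 392. The steps from 4 to 8 h (2.85 ± 0.30, adjusted p = 6.58e-08) and from 8 to 16 h (2.19 ± 0.30, adjusted p = 4.51e-06) were called, whereas the steps to 24 h (0.85) and 48 h (1.05) were under 4-fold. Among all genes, 0.814% were called between 4 and 8 h and 1.04% between 8 and 16 h. The mean grew from 1526 ± 118 at 16 h to 2783 ± 518 at 24 h. It then reached 5738 ± 862 at 48 h and 6786 ± 663 at 96 h. Gata4 was thus at 4.96% of its 96 h level at 8 h and at 22.5% at 16 h. At 96 h it was 8.02 ± 0.30 above 0 h on the log2 scale (adjusted p = 2.69e-20), with 8.15 within replicates 1 and 2 and 7.89 within replicates 3 and 4.

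The ratio of Gata4 to endogenous Gata6 changed between all consecutive time points from 2 h on. The log2 ratio of normalized counts + 1 was 0.76 ± 0.80 (SD, n = 4) at 2 h and fell to -1.89 ± 0.60 at 4 h, when Gata6 had risen and Gata4 was still near its starting level. It then rose to -0.05 ± 0.19 at 8 h and 0.76 ± 0.06 at 16 h. By 24 h it was 1.59 ± 0.23, and by 48 h 2.25 ± 0.05. At 96 h it was lower again, at 1.71 ± 0.06, with a step from 48 h of 0.78 for Gata6 and 0.25 for Gata4 (log2, neither past 4-fold). In each of the 6 steps the 4 samples of a time point did not overlap the 4 before it (two-sided exact permutation test, p = 0.0286, the smallest that 4 against 4 samples allow, adjusted p = 0.031 over 13 tests). The test takes the 4 samples as separate units, although the replicates formed 2 sets. With 2 units per group the smallest p of such a test would be 0.333. The size of the ratio depends on transcript length, which is not scaled out here, but its changes do not. Its changes may depend on how reads were divided between the endogenous and the transgene row, which is not known. The transgene row held 145% of the endogenous reads at 8 h and 7.39% at 16 h (means).

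**Figure D2:**
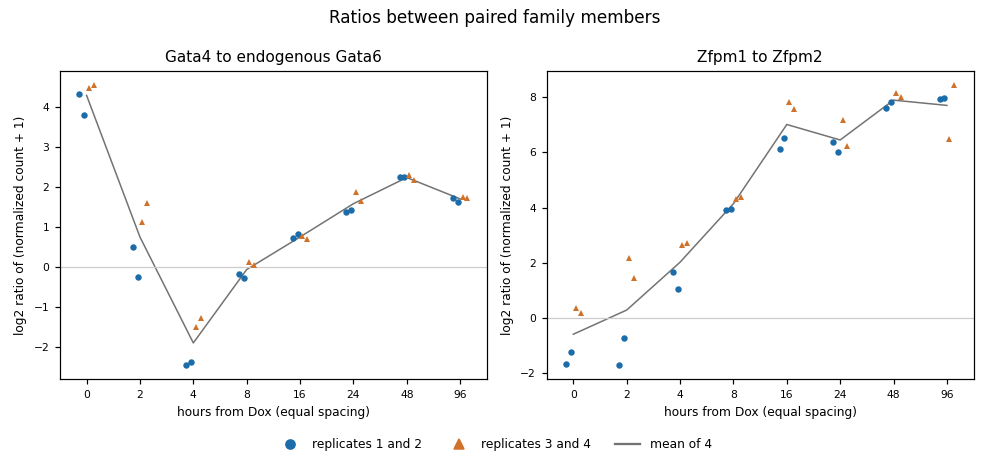
Log2 ratios of Gata4 to endogenous Gata6 (left) and of Zfpm1 to Zfpm2 (right), each of normalized counts + 1, with 1 point per sample and a line through the means of 4. The left ratio has its lowest mean at 4 h (-1.89) and, from 2 h on, its highest at 48 h (2.25), and the right ratio passes from a mean of -0.59 at 0 h to 7.90 at 48 h and 7.71 at 96 h.

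The FOG cofactors moved in opposite directions. Zfpm1 was at 12.4, 18.3, 37.9 and 32.1 normalized counts at 0 h, at 104, 96.9, 150 and 176 at 4 h and at 252, 207, 254 and 241 at 8 h. All 4 h samples lay above all 0 h samples. The rise was called from 4 h on (log2 difference 2.42 ± 0.34, adjusted p = 8.77e-07) and was 3.31 ± 0.34 at 8 h, 4 h before Dox was withdrawn, with no step between consecutive time points that reached 4-fold. Zfpm1 then dipped. From 227 ± 27.3 at 16 h it was at 82.9, 104, 144 and 134 at 24 h, below every 16 h sample (log2 difference -0.98 ± 0.34, adjusted p = 0.035, under 4-fold). It was back at 240 ± 37.6 at 48 h (1.05 ± 0.34 above 24 h, adjusted p = 0.0097) and at 288 ± 51.3 at 96 h (3.57 ± 0.34 above 0 h, adjusted p = 7.14e-11). At 24 h the call against 0 h was lost within replicates 3 and 4 (1.97) and kept within replicates 1 and 2 (2.55).

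Zfpm2 was at 41.4, 44.8, 29.0 and 28.3 normalized counts at 0 h and differed little at 2 h (35.5 ± 17.2) and 4 h (31.7 ± 10.1). At 8 h it was at 15.7, 12.5, 11.7 and 10.6, below every 0 h sample but under 4-fold (log2 difference -1.42 ± 0.43, adjusted p = 0.0076). At 16 h replicates 1 and 2 had 3 and 2 reads and replicates 3 and 4 had none, and the step from 8 h was called (-2.94 ± 0.43, adjusted p = 8.99e-06). With a pseudocount of 5 this step was -1.56 and under 4-fold (adjusted p = 1.90e-05). Summed over samples, Zfpm2 was 76.9-fold lower at 24 h than at 0 h (20.9 to 641) and 69.4-fold lower at 96 h (18.9 to 579). At 48 h it had 0 reads in all samples, which is at least 45.7-fold lower. In the fit over all samples it was the only member called lower than 0 h at any time point.

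The log2 ratio of Zfpm1 to Zfpm2 gives both changes at once. It was -0.59 ± 1.01 at 0 h and 0.29 ± 1.81 at 2 h, which overlapped (two-sided exact permutation test, difference 0.88, p = 0.43). It was 2.02 ± 0.80 at 4 h and 4.14 ± 0.24 at 8 h. After Dox withdrawal it was 7.01 ± 0.82 at 16 h and 6.45 ± 0.51 at 24 h, and it ended with 7.90 ± 0.23 at 48 h and 7.71 ± 0.86 at 96 h. From 4 h on, each group lay above all 0 h samples (exact permutation test, p = 0.0286, adjusted p = 0.031). Here too the test took the samples of both replicate sets as separate units. At 16 h and later Zfpm2 had few or 0 reads in each sample, and the ratio there depends on the pseudocount.

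Gata3, a trophoblast factor in the blastocyst, was low throughout. It had 2, 0, 1 and 1 reads at 0 h and 11, 13, 14 and 14 reads at 2 h, so that every 2 h sample lay above every 0 h sample. The difference at 2 h was called (log2 2.64 ± 0.40, adjusted p = 3.47e-06), as it was at 4 h (2.59) and 8 h (2.58). Gata3 then fell from 12.9 ± 6.61 normalized counts at 8 h to 3.50 ± 1.67 at 16 h (log2 difference -1.56 ± 0.40, adjusted p = 0.0063, under 4-fold). Without replicate 1, the difference between 24 h and 0 h was called (2.24), as it was with a pseudocount of 0.5 (2.298) and with limma-voom (2.67), while with all samples it was 1.91 ± 0.40 and under 4-fold. It rose to 24.5, 33.9, 34.3 and 40.2 at 48 h (2.097 ± 0.40 above 24 h, adjusted p = 5.72e-05) and was at 32.03 ± 5.81 at 96 h, 3.95 ± 0.40 above 0 h (adjusted p = 2.8e-10). With a pseudocount of 5 or on the deposited scale, the early calls and the step to 48 h were under 4-fold.

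Gata2, known from blood precursors and trophoblast, split by replicate set. At 0 h it was at 16.6 and 9.5 normalized counts in replicates 1 and 2 and at 58.8 and 47.2 in replicates 3 and 4. At 96 h it was at 74.3 and 88.3 in replicates 1 and 2 and at 7.5 and 18.9 in replicates 3 and 4. The sets therefore changed in opposite directions between 0 and 96 h, by 2.59 on the log2 scale in replicates 1 and 2 and by -2.04 in replicates 3 and 4, and the value over all samples (0.28 ± 0.57, adjusted p = 0.68) describes neither. At 48 h the difference from 0 h was 2.93 in replicates 1 and 2 and -0.09 in replicates 3 and 4. This difference between the sets was not tested. Of the 10 trophoblast markers listed below, 7 had both samples of replicates 3 and 4 below both of replicates 1 and 2 at 96 h, and 7 at 48 h. Of the 10 markers of mesoderm, blood and endothelium, 0 did so at 96 h and 1 at 48 h. These counts take 1 direction only. By the mean at 96 h, 8 trophoblast markers were lower and 2 higher in replicates 3 and 4 than in replicates 1 and 2. Of the mesoderm, blood and endothelium markers, 2 were lower and 8 higher. The share of all genes that differed in these ways was not counted, so the counts have no background. The sets also differed over all genes (chi-square given above). The summed level of the trophoblast markers at 96 h was 1109 and 1113 normalized counts in replicates 1 and 2 and 437 and 482 in replicates 3 and 4. At 0 h the sums overlapped (766 and 790 against 752 and 833), but single markers differed in both directions. By the mean, 6 were lower and 3 higher in replicates 3 and 4. At 2 h the sum was higher in replicates 3 and 4 (437 and 442) than in replicates 1 and 2 (267 and 309), as it was at 4 and 8 h. The sum of the mesoderm, blood and endothelium markers at 96 h was 1030 and 1086 in replicates 1 and 2 and 1275 and 1367 in replicates 3 and 4. The part of either list of markers in the split of Gata2 was not tested.

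Between these times both sets of Gata2 were low. From 4 to 24 h all samples lay between 3.6 and 13.9 normalized counts, with means of 10.7 ± 4.05 at 4 h and 6.84 ± 2.71 at 24 h. Over all samples the difference from 0 h passed the FDR at each of these 4 time points but was under 4-fold, with -1.77 ± 0.57 at 16 h (adjusted p = 0.011) and -1.86 ± 0.57 at 24 h (adjusted p = 0.0065). It passed 4-fold without replicate 2 at 8 h (-2.01), 16 h (-2.01) and 24 h (-2.30), and without replicate 1 at 16 h (-2.07). The fall was smaller in replicates 1 and 2, which had the lower 0 h levels. At 4 h it was -0.59 (adjusted p = 0.297) within replicates 1 and 2 and -1.99 within replicates 3 and 4, and at 8 h -0.54 (adjusted p = 0.354) and -2.29. The FDR was missed at 4 h without replicate 3 (-0.96, adjusted p = 0.205) or 4 (-1.16, adjusted p = 0.222), and at 8 h without replicate 1 (-1.41, adjusted p = 0.104), 3 (-1.11, adjusted p = 0.138) or 4 (-1.13, adjusted p = 0.236). It was missed at both times with limma-voom (adjusted p = 0.265 and 0.124). Against 24 h, Gata2 was higher at 48 h in both sets, at 106 and 99.9 in replicates 1 and 2 and at 48.4 and 50.6 in replicates 3 and 4, and this step was called (3.28 ± 0.57, adjusted p = 1.88e-05). Between 24 and 48 h 3.91% of all genes were called, and of the members Gata2 and Gata3.

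**Figure D3:**
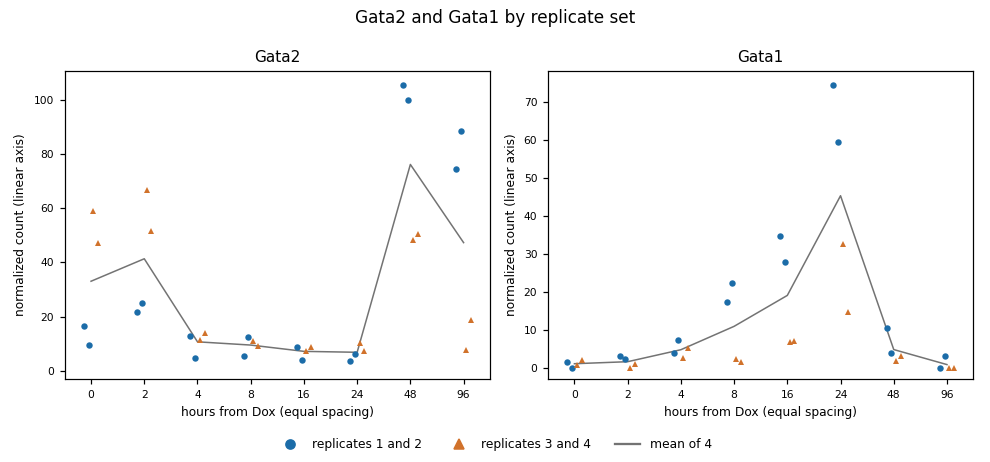
Normalized counts (linear axis) of Gata2 (left) and Gata1 (right) in every sample, with replicates 1 and 2 as circles, replicates 3 and 4 as triangles and the mean of 4 as a line. For Gata2 the triangles lie above the circles at 0 and 2 h and below them at 48 and 96 h, and for Gata1 the circles lie above the triangles from 8 to 48 h.

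Gata5 was close to absent. It had 0 reads in all samples from 0 to 8 h and at most 2 reads in any sample after that, with means of 0.41 at 16 h and 0.58 at 96 h. It was not tested, and at this depth no change could be seen.

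Counted over the 6 members tested, 2 were called higher than 0 h at 2 h (Gata3 and Gata6), 3 at 4 h (with Zfpm1) and 4 at 8 h (with Gata4), against 2.35%, 3.4% and 4.71% of all genes called in either direction. At 16 and at 24 h, 3 were higher (Gata4, Gata6 and Zfpm1) and 1 lower (Zfpm2), against 6.42% and 9.19% of all genes. At 48 and at 96 h, 4 were higher (Gata3, Gata4, Gata6 and Zfpm1) and 1 lower (Zfpm2), against 15.6% and 19.6%. At 96 h 9.28% of all genes were higher and 10.3% lower, with a median log2 difference of -0.03 over all genes and 3.76 over the 6 members. Between consecutive time points, 0 members were called from 16 to 24 h and from 48 to 96 h (limma), where 1.25% and 3.7% of all genes were. At an unadjusted p below 0.05 there were 3 members in the first of these steps and 1 in the second, and limma-voom on the recovered reads called 0 in both.

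**Figure D4:**
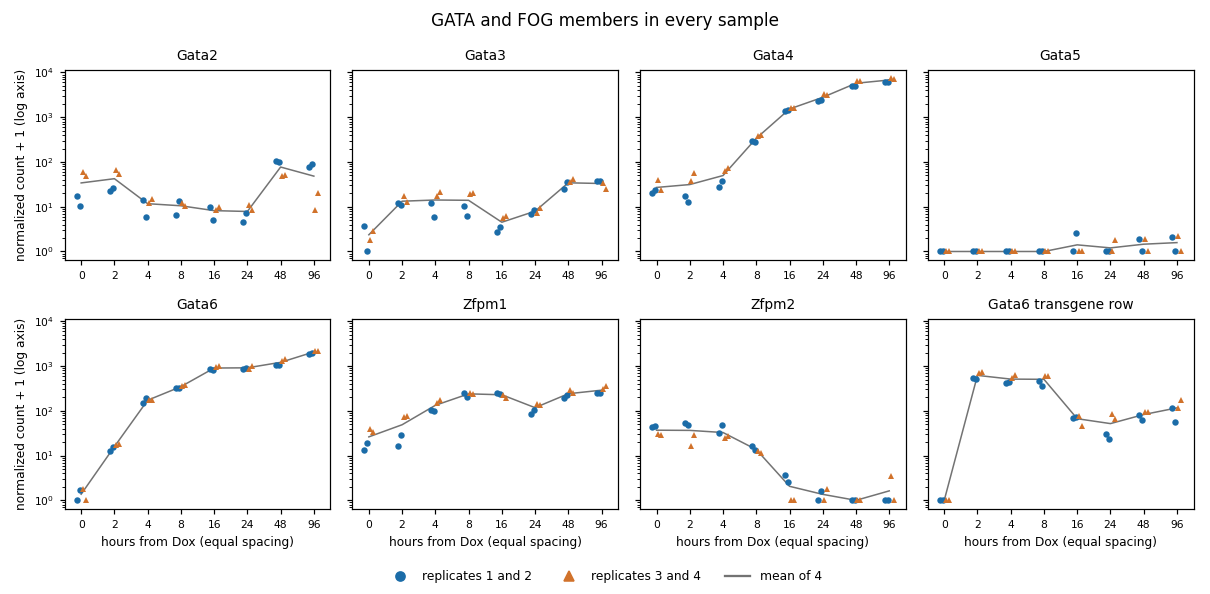
Normalized counts + 1 (log axis) of the 7 members and the transgene row in every sample, with replicates 1 and 2 as circles, replicates 3 and 4 as triangles and a line through the means. Gata4 and Gata6 rise by over 4-fold and do not return, Zfpm2 falls to 0 reads in every sample at 48 h, and Gata2 and Gata3 have their lowest means after 0 h at 24 and 16 h.

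Levels of different members were compared per kb of annotated exon. At 0 h Zfpm1 (7.19 ± 3.37 normalized counts per kb), Gata4 (6.65 ± 2.34) and Gata2 (6.12 ± 4.40) did not differ beyond their spread. They were followed by Zfpm2 (3.76 ± 0.89), which still overlapped Gata2 and Zfpm1, and then by Gata3 (0.34 ± 0.30), Gata6 (0.057 ± 0.066) and Gata5 (0). At 4 h Zfpm1 (37.6 ± 10.8) and Gata6 (26.3 ± 2.65) had overlapping samples, and all samples of Gata4 (12.5 ± 5.31) lay below those of Gata6. At 8 h Gata4 (86.2 ± 15.9) and Zfpm1 (68.1 ± 6.18) had overlapping samples, and Gata6 was at 53.1 ± 3.48. At 96 h Gata4 (1738 ± 170) stood above Gata6 (318 ± 23.7), Gata6 above Zfpm1 (82.3 ± 14.6), and Zfpm1 above Gata2 (8.76 ± 7.41) and Gata3 (8.05 ± 1.46), which did not differ beyond their spread. Gata5 (0.18 ± 0.21) and Zfpm2 (0.066 ± 0.13) were lowest. For Gata6 the full exon length was used, although the share of its coding reads that went to the transgene row is not known.

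**Figure D5:**
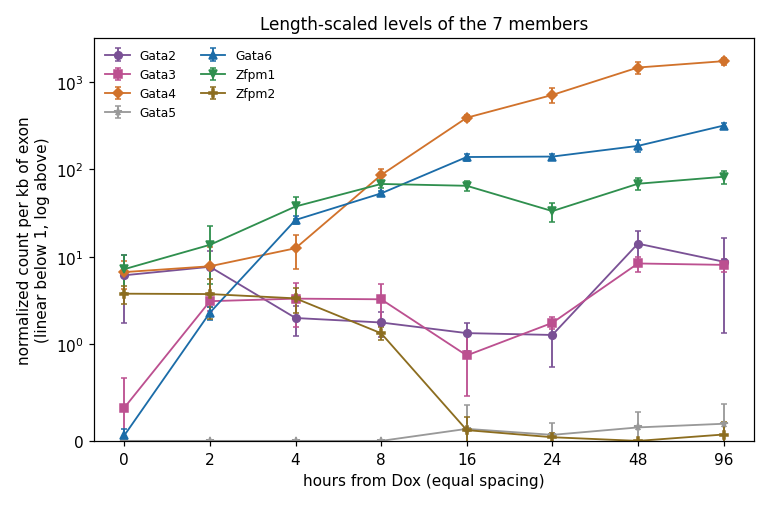
Mean normalized count per kb of exon of each member by time point, with bars of 1 SD over 4 samples. The axis is linear below 1 and logarithmic above. Gata4 crosses Gata6 between 4 and 8 h and ends at 1738, Gata6 at 318 and Zfpm1 at 82.3 per kb, whereas Gata2 and Gata3 end near 8 per kb.

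Other genes of the GATA zinc finger and FOG machinery were counted from lists. Over all genes 9.28% were higher and 10.3% lower at 96 h. Of 4 listed genes with GATA-type zinc fingers outside the members, 3 were tested. Of these, 1 was called lower at 96 h, Trps1, a GATA-type repressor (-6.01 ± 0.38, adjusted p = 6.62e-15), and 0 were called higher by limma or limma-voom, with 1 at an unadjusted p below 0.05. Gata1, the erythroid factor that binds FOG1, had a pulse and is named because its replicate sets differed too, at other times than those of Gata2. It was at 74.5 and 59.4 normalized counts in replicates 1 and 2 at 24 h and at 32.5 and 14.7 in replicates 3 and 4 (4.39 ± 0.69 above 0 h, adjusted p = 2.68e-06), and at 0.79 at 96 h. It was chosen after its values were seen.

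Of 16 genes for NuRD subunits and CtBP, the corepressors that FOG proteins recruit, 0 passed 4-fold at 96 h in either direction by limma or limma-voom, although 4 were higher and 8 lower at an unadjusted p below 0.05. Their log2 differences lay between -1.997 and 1.74, with a median of -0.14. At 16 h 1 was called higher, Chd5 (2.02 ± 0.25, adjusted p = 7.04e-08), a chromatin remodeller of the NuRD family, which is named after its values were seen. Of 18 listed partners of GATA factors, 13 were tested, and of these 2 were higher at 96 h and 0 lower, with 4 lower at an unadjusted p below 0.05. They were Runx1 (4.90 ± 0.17), a blood transcription factor, and Mef2c (4.07 ± 0.44), a muscle and heart factor at 21.7 normalized counts. Limma-voom called the same number. The median over the 13 was 1.02.

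Of 19 listed marker genes of primitive endoderm and its derivatives, 18 were tested, and of these 0 were called at 2 h and 4 at 4 h. Afp did not pass the filter, with means of 0.17 normalized counts at 0 h and 4.15 at 96 h. The list was drawn up both as endoderm markers and as genes that GATA4 or GATA6 is known to bind or activate. Whether these factors acted on the genes here was not tested. The count called was 12 at 8 h and 18 at 96 h, all higher. The filter let in genes with 0 reads at 0 h, such as Ihh, through the later groups where they were high. The count at 96 h depends in part on this. Over all genes 2.35%, 3.4%, 4.71% and 19.6% were called in either direction at 2, 4, 8 and 96 h. At 2 h 4 of the 18 were higher and 2 lower at an unadjusted p below 0.05, and limma-voom called 1 higher and 0 lower. At 96 h the rise was largest for Cubn (11.76 ± 0.35), an endocytic receptor of visceral endoderm, followed by the collagens Col4a1 (11.37 ± 0.19) and Col4a2 (11.29 ± 0.24). Of the ES cell markers, Esrrb (-7.13 ± 0.16), Prdm14 (-7.12 ± 0.36) and Nanog (-6.62 ± 0.22) fell most.

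Markers of other lineages in which these GATA factors act were present at low to moderate levels beside Gata2, Gata3 and Zfpm1. Of 9 tested trophoblast markers, 3 were higher at 96 h, Plac1 (6.79 ± 0.53), Hand1 (4.68 ± 0.49) and Krt7 (3.51 ± 0.80), and 1 lower, Tfap2a (-2.31 ± 0.27). For Krt7 the difference was 6.12 within replicates 1 and 2 (means of 3.76 and 323 normalized counts at 0 and 96 h) and 0.91 within replicates 3 and 4 (30.0 and 56.3), so that the value over all samples describes neither set. Plac1 and Hand1 rose by over 4-fold in both sets. Over all genes 9.28% were higher and 10.3% lower at 96 h, the background for both marker lists here. The sum over all 10 trophoblast markers lay between 752 and 833 normalized counts at 0 h, between 344 and 355 at 16 h, between 1137 and 1579 at 48 h and between 437 and 1113 at 96 h, and Elf5 was at 0 at 0 h. Of 6 tested markers of mesoderm, blood and endothelium, 3 were higher, Cdh5 (8.37 ± 0.54), Runx1 and Kdr (3.07 ± 0.38), and 2 lower, T (-6.90 ± 0.85) and Pecam1 (-3.33 ± 0.16). Their sum over 10 markers lay between 977 and 1101 at 0 h and between 1030 and 1367 at 96 h, and Mesp1 was at 0 at 2, 24 and 48 h. To follow differentiation the study scored cells positive for PDGFRA and negative for PECAM. Pecam1 is therefore not a marker of these lineages alone here. The part of cells of other lineages in the levels of Gata2, Gata3 and Zfpm1 was not tested.

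For each member the genes with the most similar profile over the 32 samples were ranked by Pearson's r on log2(normalized count + 1), among 9964 genes. They were Gdpd5 (0.991), Foxq1 (0.987) and Tmem144 (0.986) for Gata4 and Podxl (0.987), Capn2 (0.976) and F2r (0.976) for Gata6. For Zfpm2 they were Diaph1 (0.952), Msantd3 (0.945) and Spire2 (0.943), and for Zfpm1 Phldb2 (0.943), Arl4d (0.934) and Camk2d (0.930). Phldb2 and Camk2d also had lower means at 24 h (771 and 78.0) than at 16 h (1284 and 156) and at 48 h (1575 and 141), as Zfpm1 did. Arl4d was at 190 at 16 h, 183 at 24 h and 249 at 48 h. Since these genes were chosen for their likeness to Zfpm1 in the same samples, a shared dip follows in part from the choice. For Gata3 they were Sdcbp (0.896), Shisa5 (0.891) and Trappc6b (0.888), and for Gata2, the member with the least similar profiles, Washc2 (0.835), Trim41 (0.815) and Sin3b (0.798). The samples share time points, libraries and depth, and these values are descriptions.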

How the data were processed

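RNA-seq of poly(A) RNA from mES cells at 8 time points was analysed, with groups and replicate numbers taken from the sample titles. Per the study's methods and the submitters' processing notes, the authors checked reads with FastQC 0.11.8, trimmed adapters (cutadapt 2.7), mapped to GRCm38.p6 (HISAT2 2.1.0), counted reads over GENCODE m18 genes (featureCounts, Subread 1.6.4) and applied size factors and the variance stabilizing transformation of DESeq2. The deposited values are on this log2 scale. Inverting the transformation gave whole reads for 100% of the values (tolerance 0.001 reads) and normalized counts. The authors' splitting of reads between the Gata6 row and the transgene row is not given in the sources used here. Reads on genes per sample had a median of 8870662.5, so a gene of few reads has a wide counting interval.

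Genes with at least 10 normalized counts in at least 4 samples entered a linear model of log2(normalized count + 1) in limma (version 3.58.1, R 4.3.3; lmFit, contrasts, eBayes with trend, all 32 samples) with Benjamini-Hochberg adjustment per comparison. The threshold, FDR < 0.1 and a log2 difference of at least 2, and the choice of 0 h and the time point before as references, follow the study's methods. The procedure was tested on simulated data. The 13 ratio tests were two-sided exact permutation tests (Python 3.11.15, scipy 1.17.1). Intervals are exact at 95% and, as limits for 0 reads (3 reads over a group), cover counting error alone, as PCR duplicates cannot be recognized. Genes without a symbol in the table (29140 rows) were named from a table of identifiers, except 93. Exon lengths and positions are from GENCODE M21 on GRCm38.

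The members and the gene lists were chosen with earlier results of these data known. Named are all members and the transgene row, the 3 genes most correlated with each member that passed the filter (mean of at least 100 at the highest time point), and from each list all genes past the threshold at 96 h where there are 5 or fewer, otherwise the 3 largest rises and the 3 largest falls. Alternatives covered the pseudocount, the filter, the scaling, the replicate number as a block, the samples in the fit, the replicate sets, the thresholds, leaving out each replicate, limma-voom on the recovered reads and the deposited values themselves. ATAC-seq, CUT&RUN and the other assays of the study were not analysed here.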

Additional observations from a re-analysis of the deposited data

Results flagged for a closer look

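Of 51 groups of 4 samples tested for a single value far from the rest, 1 stood out. Gata4 at 0 h was at 39.49 normalized counts in replicate 3, with the nearest other sample at 22.66, and this gap made up 0.834 of the range of the group (limit 0.829 for 4 samples). Chance flags about 1 in 20 such groups. Gata4 was at 19.3 to 22.7 normalized counts in the other 3 samples.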

How the results depend on the processing

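Of 1268 values for single genes under the alternatives, 1215 kept their direction and their side of the threshold, 12 fell below it, 32 passed it and 9 turned. Gata2 turned within replicates 3 and 4 at 48 h (-0.090) and 96 h (-2.04 against 0 h), and ranged from -0.66 to 1.30 at 96 h when 1 replicate was left out. The difference of Gata4 between 2 and 0 h, 0.03 over all samples, was -0.061 with limma-voom, -0.52 within replicates 1 and 2 and -0.37 to 0.32 with 1 replicate left out. That of Zfpm2, -0.13, was 0.19 within replicates 1 and 2 and -0.29 to 0.12. The log2 ratio of Zfpm1 to Zfpm2 at 96 h rose above 0 h by 9.40 within replicates 1 and 2 and 7.19 within replicates 3 and 4, and by 7.86 to 9.03 with 1 replicate left out.

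Counts of called members that moved by over 1.5 times are given here, and beyond what the settings fix by construction the cause was not tested. With a pseudocount of 5, 0 were higher at 2 h, 0 lower from 8 to 16 h and 1 higher from 24 to 48 h. On the deposited scale 1 was higher at 2 h and 1 from 24 to 48 h. With genes of a mean of at least 50 only, Zfpm2 and other low members were not tested, which left 1 higher at 2 h, 0 lower at 16, 24, 48 and 96 h, 0 lower from 8 to 16 h and 0 higher from 24 to 48 h. The same filter left 1 GATA partner higher, 1 trophoblast marker higher and 0 lower, and 1 mesoderm or blood marker lower. With a 2-fold threshold, 1 was lower at 4 h and 2 at 8, 16 and 24 h, 2 were higher and 1 lower from 2 to 4 h and from 4 to 8 h, 2 higher and 2 lower from 8 to 16 h, 4 higher from 24 to 48 h and 1 lower from 48 to 96 h. Within replicates 3 and 4, 1 was lower at 8 h, 2 at 16, 24 and 96 h, and 1 from 2 to 4 h. Within replicates 1 and 2, 2 were higher from 2 to 4 h and 1 from 24 to 48 h. With 1 replicate left out, the count lower was 0 to 1 at 8 h, 1 to 2 at 16 and at 24 h and 0 to 1 from 2 to 4 h. Smaller moves included those of Gata3, which was also called at 24 h with limma-voom or a pseudocount of 0.5 (4 higher, against 3), passed a 2-fold threshold at 16 h (1.02) and 24 h (1.91), and was not called at 4 and 8 h with a pseudocount of 5 (1.44 and 1.43) or on the deposited scale (1.74 and 1.73). With TMM factors 1 NuRD gene was lower at 96 h.

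Same-numbered samples deviated together from their means (mean correlation 0.196) to the same degree as both numbers of a set did with each other (0.196), and some pairs were below 0 (lowest -0.043), so the numbers were not taken to pair samples. With the replicate number as a block, all 72 single-gene values and all 26 counts of members stayed on their side of the threshold, with 2 members higher at 2 h and 4 at 96 h. Paired by number, the smallest p of the ratio tests is 0.125. Depth limits Gata5, Gata3 before 48 h and Zfpm2 after 8 h.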
